A study of Homo sapiens with 96 samples.

Results

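A549, a widely used cell line derived from lung adenocarcinoma, was kept in 0.01% DMSO, the vehicle of the inhibitor experiments, and its poly(A)-RNA was sequenced at 4 and at 7 days. The comparison of both times uses 6 of the 96 samples of the series, 3 libraries at 4 days and 3 at 7 days. DMSO was the sole treatment of both groups, so no inhibitor and no genetic change separates them. The cells are 1 cancer line, and no source says that the 3 libraries of a day came from separate cultures. The p-values below thus measure at most the spread between these libraries, and much of that spread is pooled over events of the same type. The labels do not name the control of the 7-day tables outright, and its identity as DMSO at 7 days was inferred from them. Libraries of a day are called a, b, and c in the order of the tables, and a letter does not pair a 4-day library with a 7-day library.

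The members are splicing events that carry the same type, chromosome, strand, and coordinates in the tables of both days. Of 218795 events listed at 4 days and 146482 listed at 7 days, 126173 were shared. They comprised 89191 skipped exons (SE), 19927 pairs of mutually exclusive exons (MXE), 7590 alternative 3′ splice sites (A3SS), 4976 alternative 5′ splice sites (A5SS), and 4489 retained introns (RI). RI are given below as a short reference. An event was tested where every library had at least 10 reads on it and where both forms were seen in the 6 libraries. Both days come from different libraries, counted in separate tables, so the day and any other difference between both sets of libraries cannot be told apart.

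Most human genes with several exons make more than 1 messenger RNA. The spliceosome joins exons at a 5′ splice site (donor) and a 3′ splice site (acceptor), and proteins such as SR proteins and hnRNPs bind the RNA and favour or block particular sites. A skipped exon can add or remove part of a protein, change the reading frame, or change the leader of the mRNA ahead of the start codon, and some exons carry a stop codon that sends the mRNA to nonsense-mediated decay. The inclusion of an exon, site, or intron is given as Ψ, the share of the form that holds the alternative segment after each read count is divided by its effective length, so it runs from 0 to 1. ΔΨ is the mean Ψ at 7 days minus the mean Ψ at 4 days.

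Read counts summed over shared SE were 58298266 to 65430771 in the 4-day libraries and 48322216 to 50300015 in the 7-day libraries. A read can count in several events that share exons, so these sums are not numbers of distinct reads. By this sum every 4-day library was deeper than every 7-day library. The counts of libraries of the same day differed by 1.80 to 2.62 times the sampling variance, against 2.95 to 4.49 times between days, and no library was a copy of another. Markers of this line were present, with 43368 reads or more in every library on an event of the keratin gene KRT8 and 79589 on one of ALDH1A1. Of the epithelial markers, EPCAM reached only 29 and CDH1 160 in the lowest library, and KRT19 had no shared event. The leukocyte, endothelial, and fibroblast markers PTPRC, CD3E, PECAM1, CDH5, COL1A2, and DCN had no shared event, and COL1A1 reached 26 reads.

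The exons below show what kind of sequence moved. Those of PTBP1, APP, and EIF4A2 had clear falls over deep coverage, and the exon of CLSTN1 moved in opposite directions in DMSO and in GSK591. Each is written 5′ to 3′ on the strand of the gene from GRCh37 (hg19), with the exon in capitals and the adjoining intron in lower case.
PTBP1, chr19:805472-805579, + strand: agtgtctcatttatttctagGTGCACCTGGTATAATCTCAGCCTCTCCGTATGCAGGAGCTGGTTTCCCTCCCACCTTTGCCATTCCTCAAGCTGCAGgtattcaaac
APP, chr21:27369665-27369751, − strand: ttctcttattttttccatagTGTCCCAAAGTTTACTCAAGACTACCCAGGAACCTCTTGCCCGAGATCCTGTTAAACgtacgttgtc
EIF4A2, chr3:186506079-186506219, + strand: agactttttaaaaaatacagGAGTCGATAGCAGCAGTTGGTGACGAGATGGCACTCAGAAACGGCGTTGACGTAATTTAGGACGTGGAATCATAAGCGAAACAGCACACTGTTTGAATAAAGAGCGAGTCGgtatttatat
CLSTN1, chr1:9797546-9797632, − strand: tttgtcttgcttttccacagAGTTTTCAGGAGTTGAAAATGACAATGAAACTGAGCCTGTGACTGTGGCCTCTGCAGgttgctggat

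Skipped exons were included less at 7 days than at 4 days far more often than they were included more. Of 63801 tested SE, 1951 passed the threshold, which is 3.06% of those tested. Ψ was lower at 7 days in 1575 of them (2.47% of tested) and higher in 376 (0.589%), so 80.7% of the called SE went down. They lie in 1348 genes, the median ΔΨ was −0.0743 for the called SE that fell and +0.0613 for those that rose, and 726 moved by at least 0.1. Over all tested SE the median ΔΨ was only −0.00107, with an exact permutation p of 0.1 (two-sided). No smaller p is possible with 6 libraries in this design. The typical tested SE thus hardly moved.

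The number of SE called differed widely between settings. The spread of each SE had 4 residual degrees of freedom of its own and 184 from the prior dispersion shared by all SE. The p-value of an exon thus rests mostly on that shared value and little on how its own libraries differ. For A3SS and A5SS the prior had 105 and 34.4 degrees of freedom. With the prior dispersion fitted as a trend 847 SE were called. No SE passed when limma was applied to the log2 odds (0 called, 6071 with an unadjusted p under 0.05). Without 7-day library a, b, or c the counts were 180, 192, and 496, and without 4-day library b the count was 1080. With any 1 library left out the prior degrees of freedom of SE also fell, from 184 to between 0.915 and 1.25. They fell in the other event types too. The test thus changed along with the libraries, and a lost call below cannot be ascribed to the left-out library alone. A choice made after seeing the data kept only SE with at least 10 reads of the rarer form. Without 7-day library a, b, or c these gave 728, 746, and 1285 calls.

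**Figure D1:**
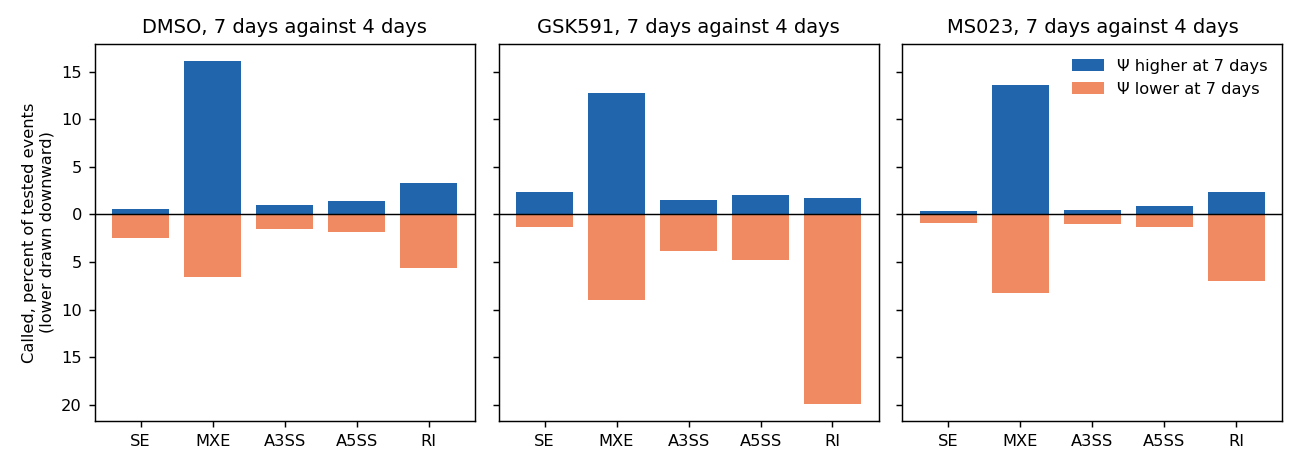
Share of tested events that were called (percent, vertical axis) for each event type (horizontal axis) at 7 days against 4 days, with Ψ higher at 7 days drawn upward and lower drawn downward, in DMSO, GSK591, and MS023. In DMSO the MXE bars are the tallest, at 16.1% higher and 6.61% lower, while 2.47% of SE were lower and 0.589% higher.

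The exon of APP, the amyloid precursor protein, had a lower Ψ at 7 days. The skipped form of this event joins 2 particular flanking exons, so Ψ is the share among both counted forms and not among all APP transcripts. This 57 nt exon encodes the short domain known as OX2 and keeps the reading frame. Its Ψ was 0.774, 0.668, and 0.754 at 4 days and 0.343, 0.384, and 0.458 at 7 days. All 7-day libraries lay below all 4-day libraries, with means of 0.732 ± 0.0562 and 0.395 ± 0.0581 (SD, n = 3 each) and a ΔΨ of −0.337 (adjusted p = 1.29e-27). Between 418 and 539 reads per library stand behind these values, and the call held without any 1 library (highest adjusted p 0.004).

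The exon shown for EIF4A2 fell likewise. EIF4A2 is an RNA helicase of translation initiation, and its 111 nt exon is annotated only in transcripts that are not coding. Its Ψ was 0.602, 0.538, and 0.582 at 4 days and 0.207, 0.213, and 0.340 at 7 days. The form with the exon was thus the larger at 4 days and the smaller at 7 days, with no overlap (ΔΨ = −0.321, adjusted p = 1.28e-33). A version of the exon that is 107 nt long and annotated in nonsense-mediated decay transcripts, shares most of its reads and had a ΔΨ of −0.314. This version was added after its values were seen.

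PTBP1 encodes a polypyrimidine tract binding protein that represses many exons, and the exon shown lies within its coding sequence. Ψ of this 78 nt exon was 0.678, 0.719, and 0.669 at 4 days against 0.487, 0.531, and 0.528 at 7 days, again without overlap (ΔΨ = −0.173, adjusted p = 3.54e-27). A version of 57 nt with an acceptor further in, which shares reads with the first, gave a ΔΨ of −0.126 (adjusted p = 2.31e-12). Both versions keep the frame, and the shorter was added after its values were seen.

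CTNND1 encodes p120 catenin, a partner of cadherins whose isoforms differ between epithelial and mesenchymal cells. Ψ of a 289 nt exon was 0.693, 0.755, and 0.657 at 4 days and 0.418, 0.426, and 0.474 at 7 days (ΔΨ = −0.262, adjusted p = 2.57e-26). BCL2L12, a member of the BCL2 family, had a 143 nt exon with Ψ of 0.765, 0.777, and 0.771 at 4 days and 0.541, 0.579, and 0.614 at 7 days (ΔΨ = −0.193, adjusted p = 1.58e-15). Both exons had lower Ψ in every 7-day library, and the 4-day libraries of BCL2L12 hardly differed among themselves. In MYL6, a myosin light chain with 4741 reads or more per library, a 45 nt exon fell from 0.176, 0.162, and 0.165 to 0.0677, 0.0881, and 0.113 (ΔΨ = −0.0781, adjusted p = 9.46e-35). The calls of CTNND1, BCL2L12, and MYL6 held without any 1 library.

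Smaller falls were found in exons of genes for cell division, mRNA quality control, and splicing. ECT2 activates RHOA in cytokinesis, and Ψ of its 287 nt leader exon was 0.255, 0.244, and 0.315 at 4 days and 0.174, 0.192, and 0.193 at 7 days (ΔΨ = −0.0849, adjusted p = 7.27e-08). MAGOH is a core protein of the exon junction complex, with Ψ of 0.870, 0.833, and 0.798 against 0.766, 0.760, and 0.772 (ΔΨ = −0.0676, adjusted p = 0.0019). CLK4 is a kinase of SR proteins, with Ψ of 0.0852, 0.116, and 0.0820 against 0.0267, 0.0404, and 0.0306 (ΔΨ = −0.062, adjusted p = 2.99e-05). In each gene the highest 7-day library stayed below the lowest 4-day library, for ECT2 and MAGOH by small gaps. The call of ECT2 was lost without 7-day library a or b (highest adjusted p 0.121), that of MAGOH without 4-day library a or any 7-day library (0.254), and that of CLK4 without 7-day library a (0.104). SNHG5 is a non-coding host of snoRNAs, and its 81 nt exon, with at least 5684 reads per library, went from 0.980, 0.984, and 0.974 to 0.926, 0.934, and 0.957 (ΔΨ = −0.0404, adjusted p = 3.27e-25).

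Large falls were also found in exons with few reads. ZFAND4, a zinc finger gene, had Ψ of 0.894, 1.00, and 0.826 at 4 days and 0.436, 0.622, and 0.454 at 7 days (ΔΨ = −0.403, adjusted p = 0.000777, at least 70 reads). PPP2R3A encodes a regulatory subunit of the phosphatase PP2A, and its 2435 nt exon had Ψ of 1.00 in all 4-day libraries and 0.698, 0.444, and 0.722 at 7 days (ΔΨ = −0.379, adjusted p = 0.0021). Counts are divided by effective length, so a few reads of the skipped form weigh heavily in exons as long as those of PPP2R3A and ZFAND4. The difference in log2 odds of the undivided counts was −5.76 (standard error 2.56) for PPP2R3A. For ZFAND4 it was −3.04 (0.75), and the 70 reads given there are those of both forms together. RP11-349A22.5 is a non-coding gene named PSMA3-AS1 in the annotation, with Ψ of 0.536, 0.691, and 0.645 against 0.377, 0.217, and 0.305 (ΔΨ = −0.324, adjusted p = 8.73e-05). The groups did not overlap in these 3 genes, but each call was lost when any 7-day library was left out, with adjusted p up to 0.198, 0.177, and 0.136. PSMA3-AS1 is an antisense gene, and whether the counting used the strand is not given in the sources used here, so its reads may not be told apart from those of its partner.

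The exons that rose most had few reads as well. SEPT2, named SEPTIN2 in the annotation, encodes a septin of the cytoskeleton, and its 101 nt leader exon had Ψ of 0.240, 0.210, and 0.225 at 4 days and 0.544, 0.462, and 0.395 at 7 days (ΔΨ = +0.242, adjusted p = 3.86e-10). Its call held without any 1 library. CLCN6 encodes a chloride transporter of endosomes, with Ψ of 0.526, 0.452, and 0.706 against 0.835, 0.925, and 0.765 (ΔΨ = +0.280, adjusted p = 0.00236). EME1 encodes a partner of the nuclease MUS81, with Ψ of 0.508, 0.439, and 0.681 against 0.817, 0.857, and 0.748 (ΔΨ = +0.265, adjusted p = 0.0011). In both genes 4-day library c lay close below the lowest 7-day library.

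ZNF317, a zinc finger gene, had Ψ of 0.343, 0.296, and 0.378 at 4 days and 0.686, 0.569, and 0.538 at 7 days (ΔΨ = +0.258, adjusted p = 0.0026). The calls of CLCN6, EME1, and ZNF317 were lost without 4-day library b or any 7-day library, with adjusted p up to 0.298, 0.277, and 0.25. RNF216P1, with Ψ of 0.362, 0.334, and 0.544 against 0.686, 0.639, and 0.694 (ΔΨ = +0.259, adjusted p = 0.000285), is a pseudogene of RNF216 whose reads may be shared with its parent, and its call was lost without any 7-day library (adjusted p up to 0.199).

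**Figure D2:**
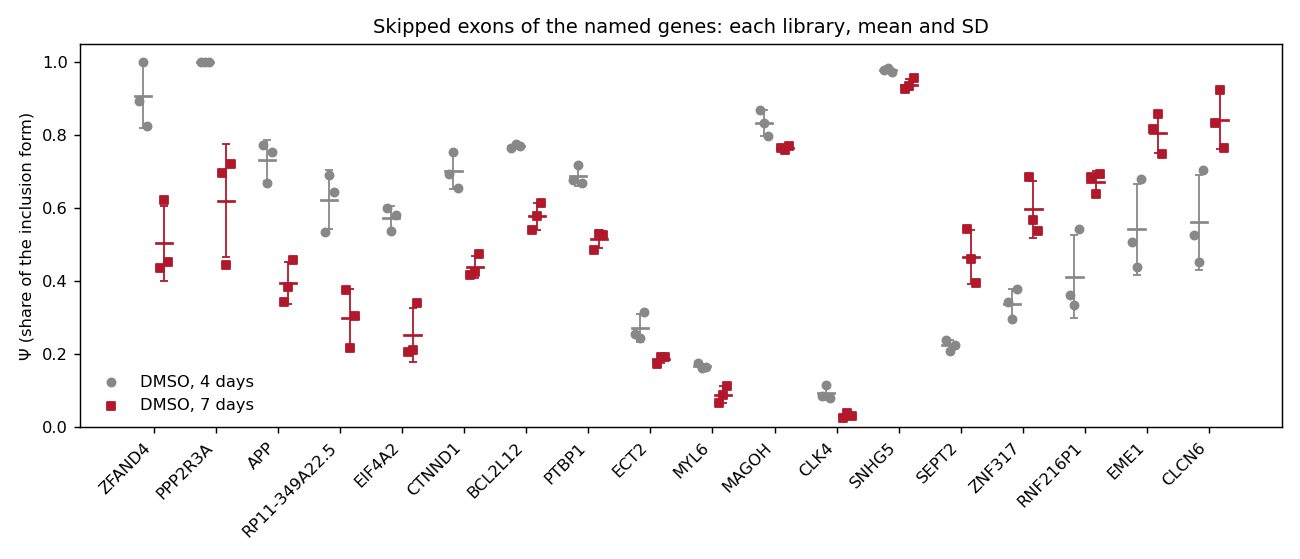
Ψ (vertical axis, 0 to 1) of the named skipped exons (horizontal axis), with each of the 3 DMSO libraries of a day as a point, the mean as a horizontal line, and the SD as a bar. Groups do not overlap for any exon drawn, and the spread is widest for exons with few reads such as CLCN6, EME1, and PPP2R3A.

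Leader exons, annotated in the 5′ untranslated part of coding transcripts, were called lower in a larger share than coding exons. Of 4552 tested SE of this class 348 were lower at 7 days and 29 higher, so 8.28% were called, against 2.29% of the 50969 tested SE in coding sequence (281 higher, 885 lower). The median ΔΨ over all tested leader exons was −0.00761, against −0.000804 for coding exons. Counted once per exon, leader exons made up 21.0% of the 1445 exons that fell, 6.81% of the 367 that rose, and 5.99% of the 47896 tested. These shares are descriptions, since neighbouring exons of a gene share reads. The classes were not matched for reads of the rarer form, and exons with few such reads have less chance of a call.

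PRKAR1A, a regulatory subunit of protein kinase A, illustrates the class. Its 133 nt leader exon (chr17:66511128-66511260) had Ψ of 0.363, 0.414, and 0.426 at 4 days and 0.108, 0.130, and 0.184 at 7 days (ΔΨ = −0.261, adjusted p = 6.85e-19). COPB2, a coat protein of vesicles between Golgi and endoplasmic reticulum, went from 0.113, 0.111, and 0.0745 to 0.0302, 0.0228, and 0.0360 (ΔΨ = −0.0697), and MORF4L2, a chromatin protein, from 0.875, 0.869, and 0.881 to 0.728, 0.743, and 0.816 (ΔΨ = −0.113, adjusted p = 5.26e-16). All 3 genes had every 7-day library below every 4-day library. They were chosen from the class after their values were seen, and their calls held without any 1 library.

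Exons annotated in nonsense-mediated decay transcripts and in no protein-coding transcript gave 29 higher and 184 lower SE of 4052 tested, or 5.26%. Over all tested SE 3.06% were called, and 80.7% of the called SE were lower. DDX50, an RNA helicase of the nucleolus, had Ψ of 0.246, 0.178, and 0.247 at 4 days and 0.0573, 0.0611, and 0.113 at 7 days (ΔΨ = −0.147, adjusted p = 1.04e-09). SRRM2, a scaffold protein of nuclear speckles, went the other way, from 0.129, 0.120, and 0.114 to 0.270, 0.242, and 0.232 (ΔΨ = +0.127, adjusted p = 5.06e-15). Both genes had groups that did not overlap, and both were picked after their values were seen. The call of DDX50 was lost without 7-day library a (adjusted p = 0.0528).

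Coding exons moved in both directions. PSMA4, a subunit of the proteasome, had a 70 nt exon with Ψ of 0.917, 0.936, and 0.893 at 4 days and 0.633, 0.672, and 0.759 at 7 days (ΔΨ = −0.228, adjusted p = 2.03e-35). PUF60, a factor that helps to recognise 3′ splice sites, had an 84 nt exon that rose from 0.609, 0.617, and 0.631 to 0.795, 0.760, and 0.739 (ΔΨ = +0.146, adjusted p = 1.58e-13), and PTK2, the focal adhesion kinase, a 9 nt exon that rose from 0.373, 0.378, and 0.338 to 0.548, 0.581, and 0.486 (ΔΨ = +0.175, adjusted p = 1.26e-10). The libraries of both days were apart in all 3 exons, which were likewise chosen after their values were seen and kept their calls without any 1 library.

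The exons that rose differed from those that fell in their GC content and in the length of the introns beside them more than in their own length. Median exon length was 120 nt in both directions and 118 nt over all tested exons. The median GC content was 55.2% for exons that rose, 48.9% for those that fell, and 49.6% over all. The shorter of the introns on either side had a median of 506 nt for exons that rose, 1290 nt for those that fell, and 1160 nt over all. Within coding sequence the length was a multiple of 3 in 54.0% of exons that rose and 50.7% of those that fell, against 43.9% of all.

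Motif letters were searched on the strand of the gene only, in the 200 nt on each side of the exon, which can run past the end of a short intron. TGCATG, the letters bound by RBFOX proteins, followed 7.36% of exons that rose, 6.09% of those that fell, and 6.10% of all tested. ACTAAC, bound by QKI and also close to the branch point motif, followed 1.63% of exons that rose, 3.6% of those that fell, and 2.10% of all. The letters of both motifs cannot overlap. These shares describe letters, not binding.

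Among genes whose exons switch between epithelial and mesenchymal cells, 18 of 27 with a tested event had a called SE, A3SS, or A5SS, against 14.2% of all 10563 genes with such an event. These 27 genes had 365 tested events of these types. Genes with more tested events have more chances of a call, and neither this share nor those of the gene lists below correct for that. Several called SE of CTNND1 and of CD44 share exon ends, so called SE of a list are not independent. Of 326 tested SE in the list 27 were lower at 7 days and 7 higher, with a median ΔΨ of −0.00186. The exons described next were picked from the list after their values were seen. CLSTN1, a cadherin-related membrane protein, had the exon shown above at 0.690, 0.718, and 0.683 at 4 days and 0.372, 0.395, and 0.535 at 7 days (ΔΨ = −0.263, adjusted p = 1.24e-16). ITGA6, a laminin-binding integrin, went from 0.606, 0.602, and 0.610 to 0.348, 0.318, and 0.467 for a 130 nt exon (ΔΨ = −0.228, adjusted p = 3.15e-06). All 7-day values lay below all 4-day values, with 7-day library c nearest to them in both genes. The call of ITGA6 was lost without 7-day library a or b (adjusted p up to 0.125), and that of CLSTN1 held without any 1 library (up to 0.0207).

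MYO18A, an unconventional myosin, had a 45 nt exon that fell from 0.548, 0.599, and 0.533 to 0.372, 0.395, and 0.388 (ΔΨ = −0.175, adjusted p = 1e-07). TJP1, a protein of tight junctions, had a 240 nt exon that rose from 0.852, 0.832, and 0.841 to 0.934, 0.906, and 0.931 (ΔΨ = +0.0825, adjusted p = 0.00568). The call of TJP1 was lost without any 1 of the 7-day libraries (adjusted p up to 0.226), while that of MYO18A held. Called exons of the list went in both directions, and the share lower was near the 80.7% of all called SE.

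Genes of the splicing machinery were also among those with called exons. In the list of hnRNP and PTB genes, 11 of 21 genes had a called SE, A3SS, or A5SS, with 11 SE lower and 4 higher of 186 tested, against calls in 14.2% of all genes and 3.06% of all SE, of which 80.7% were lower. A 166 nt exon of HNRNPR, chosen after its values were seen, had Ψ of 0.375, 0.414, and 0.390 at 4 days and 0.260, 0.261, and 0.264 at 7 days (ΔΨ = −0.131, adjusted p = 6.24e-19), and a version of 169 nt that shares its reads, added in the same way, gave a ΔΨ of −0.138. The list of SR proteins and TRA2 genes had 8 of 12 genes, with 9 SE lower and 1 higher of 52. The exception was the exon of SRSF6 annotated in nonsense-mediated decay transcripts, at 0.101, 0.104, and 0.116 against 0.120, 0.152, and 0.161 (ΔΨ = +0.0374, adjusted p = 0.00194), a call lost without any 1 of the 7-day libraries (adjusted p up to 0.301).

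A pair of overlapping exons of TRA2A, a splicing activator that is known to control its own mRNA through such an exon, had ΔΨ of −0.0343 and −0.0331 from mean Ψ of 0.067 and 0.0624 at 4 days, and the first call was lost without 7-day library a or b (adjusted p up to 0.0688). Among other splicing regulators 17 of 32 genes had a called event of these types, with 12 SE lower and 6 higher of 291. RBM6, an RNA-binding protein, had a 74 nt exon at 0.536, 0.601, and 0.551 against 0.261, 0.267, and 0.313 (ΔΨ = −0.282, adjusted p = 3.94e-06), and this exon and those of TRA2A were likewise picked after their values were seen. Of the 8 splicing kinase genes 1 had a call, that of CLK4.

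The remaining lists are given by their counts, to be read against calls in 14.2% of all genes and 3.06% of all SE, with 80.7% of called SE lower. SnoRNA host genes had 7 of 16 genes with a called SE, A3SS, or A5SS (10 SE lower and 1 higher of 149), actin cytoskeleton and adhesion genes 13 of 30 (17 lower and 3 higher of 339), and classic mutually exclusive exon genes 7 of 17 (7 lower, 1 higher of 157). Nonsense-mediated decay genes had 4 of 16 (7 SE lower of 120), apoptosis isoform genes 5 of 18 (7 lower of 111), and mitosis and cell division genes 7 of 34 (10 lower, 1 higher of 233). In hypoxia and glycolysis genes 5 of 26 had a call, in sterol and fatty acid genes 4 of 25, in p53 pathway genes 3 of 18, in Hippo pathway genes 3 of 22, and in amino acid and unfolded protein stress genes 2 of 20. The genes of arginine methyltransferases, the targets of the inhibitors used elsewhere in the series, had 0 called SE, A3SS, or A5SS in 11 genes by the quasi-binomial test. Of their 93 events 9 had an unadjusted p under 0.05 in that test. Over all tested events that share was 14% for SE, 12% for A3SS, and 14.4% for A5SS. Limma called 0 events of these types in any gene, so it cannot tell this list from others.

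Alternative splice sites moved in both directions, with fewer events tested than for SE, of which 3.06% were called. Of 5826 tested A3SS 147 were called (2.52%), 57 higher (0.978%) and 90 lower (1.54%), in 136 genes. Of 3809 tested A5SS 121 were called (3.18%), 52 higher (1.37%) and 69 lower (1.81%), in 115 genes. Medians over all tested sites were near 0, at −0.000335 for A3SS (exact permutation p = 0.2) and 0.000181 for A5SS (exact permutation p = 0.4). With limma neither type had a call (0 each, with 532 and 399 unadjusted p under 0.05), and leaving out 1 library gave 43 to 136 A3SS and 25 to 103 A5SS, the lowest counts without 7-day library a.

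Acceptors of PKMYT1 and DMAP1 are shown because these sites moved in opposite directions, and the call in each gene held without any 1 library. The last 2 bases of the intron, where the acceptor lies, are in capitals, from GRCh37.
DMAP1 long form, chr1:44679315-44679337, + strand: ttcaactcgcctccgcttAGgtc
DMAP1 short form, chr1:44679361-44679383, + strand: tgagcctggtccttcttcAGgca
PKMYT1 long form, chr16:3023444-3023466, − strand: atttcaaatctgcctccaAGtcc
PKMYT1 short form, chr16:3023214-3023236, − strand: tctcgcctgccctcctgcAGgcc

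PKMYT1 is a kinase that restrains entry into mitosis. Its long form, 230 nt longer, had Ψ of 0.214, 0.220, and 0.230 at 4 days and 0.450, 0.417, and 0.412 at 7 days (ΔΨ = +0.205, adjusted p = 5.19e-16, 428 reads or more). DMAP1, a protein of chromatin-modifying complexes, used its long form, 46 nt longer, at 0.482, 0.480, and 0.459 at 4 days and 0.181, 0.238, and 0.164 at 7 days (ΔΨ = −0.279, adjusted p = 1.47e-05). Libraries of a day lay close together in both genes, and the days were far apart.

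NME1, a nucleoside diphosphate kinase, fell from 0.616, 0.5, and 0.627 to 0.182, 0.292, and 0.296 in the share of its longer form (ΔΨ = −0.325, adjusted p = 3.74e-05). NDUFA3, a subunit of respiratory complex I, rose from 0.706, 0.747, and 0.542 to 0.894, 0.894, and 0.868 (ΔΨ = +0.220, adjusted p = 1.32e-05). TPM2, a tropomyosin, had a rare longer form that went from 0.0267, 0.0311, and 0.0208 to 0.00930, 0.00861, and 0.00991 (ΔΨ = −0.0169, adjusted p = 1.85e-21). These 3 calls held without any 1 library. That of LTBP1, which binds latent TGF-β, at 0.271, 0.216, and 0.399 against 0.530, 0.555, and 0.426 (ΔΨ = +0.208, adjusted p = 0.00841), was lost without 4-day library b or any 7-day library (adjusted p up to 0.227).

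C1orf63, named RSRP1 in the annotation and coding for a protein rich in arginine and serine, had a called A3SS and a called A5SS whose segments overlap, so they share reads. The A3SS form was at 0.829, 0.866, and 0.778 at 4 days and 0.462, 0.562, and 0.527 at 7 days (ΔΨ = −0.308, adjusted p = 6.13e-06). The A5SS form was at 0.791, 0.838, and 0.737 against 0.435, 0.457, and 0.431 (ΔΨ = −0.348, adjusted p = 3.06e-05). Both calls held without any 1 library.

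The other A5SS were less secure. RNF146, a ubiquitin ligase, rose from 0.504, 0.415, and 0.444 to 0.767, 0.651, and 0.718 (ΔΨ = +0.258, adjusted p = 0.0129), CLEC16A, a protein of mitophagy, from 0.544, 0.477, and 0.585 to 0.809, 0.694, and 0.717 (ΔΨ = +0.205, adjusted p = 0.0297), and TMEM218, a membrane protein of cilia, from 0.662, 0.654, and 0.778 to 0.924, 0.857, and 0.856 (ΔΨ = +0.180, adjusted p = 0.0357). ZNF692, a zinc finger gene, fell from 0.792, 0.839, and 0.867 to 0.612, 0.657, and 0.587 (ΔΨ = −0.214, adjusted p = 0.0237), and C17orf70, the Fanconi anaemia protein FAAP100, from 0.645, 0.498, and 0.672 to 0.305, 0.429, and 0.441 (ΔΨ = −0.213, adjusted p = 0.00883). The libraries of both days did not overlap in any of the 5. The calls of ZNF692, TMEM218, and CLEC16A were lost whichever library was left out (adjusted p up to 0.164, 0.256, and 0.349), that of RNF146 without any library but 7-day library b (up to 0.164), and that of C17orf70 without 4-day library a, 4-day library c, or 7-day library a (up to 0.321).

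**Figure D3:**
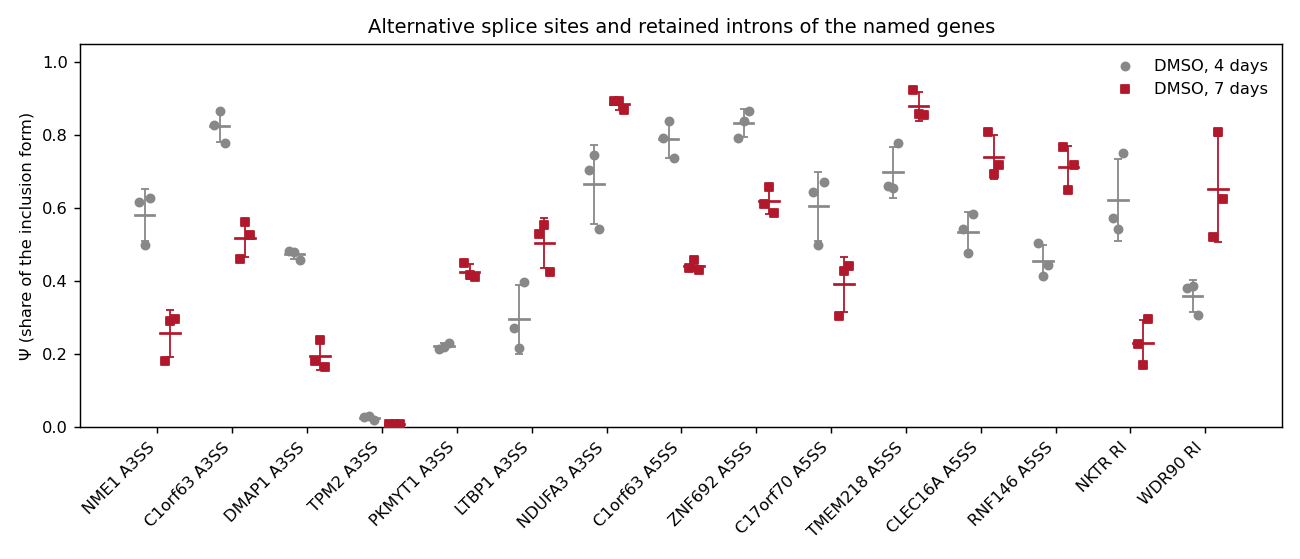
Ψ (vertical axis, 0 to 1) of the named alternative splice sites and retained introns (horizontal axis), with points for the 3 DMSO libraries of each day, lines for means, and bars for SD. The libraries of a day lie close together for PKMYT1 and TPM2 and far apart for WDR90, and the groups do not overlap for any event drawn.

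Exon pairs listed as mutually exclusive were called far more often than any other type. Ψ of a pair is the share of the exon nearer the 5′ end of the transcript. Of 18384 tested MXE 4172 were called (22.7%), 2957 higher (16.1%) and 1215 lower (6.61%) at 7 days, in 2308 genes. The median ΔΨ over all tested MXE was +0.00798 (exact permutation p = 0.1, the smallest possible), so the share of the exon nearer the 5′ end was higher at 7 days in the median pair. By limma 1767 MXE were called, and leaving out 1 library gave 2972 to 3878.

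Most of these pairs are not exclusive in these cells. In 12937 of the tested pairs the SE events of both exons had a Ψ of at least 0.9, so that most transcripts held both exons, and Ψ of such a pair compares reads at exons that occur together. These pairs gave 3421 called MXE (26.4% of those tested), which is 82% of all called MXE, and 70.1% of them were higher at 7 days. Among 4463 pairs with 1 or both exons often skipped, 639 were called (14.3%), of which 74.5% were higher. The share called also rose with depth, from 3% in the sixth of MXE with the fewest reads to 52.5% in the sixth with the most, against 1.32% and 5.3% for SE. The part of read coverage along the transcript in the MXE calls was not tested.

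Of the 12 pairs chosen by the rule for named events 11 have both exons mostly included, so their Ψ compares reads at exons that occur together, and the exception is ARSD. The deepest pair named belongs to GAPDH, a glycolytic enzyme, with 126051 reads or more per library. Its Ψ was 0.307, 0.309, and 0.313 at 4 days and 0.469, 0.465, and 0.432 at 7 days (ΔΨ = +0.146, adjusted p = 1.18e-11). GAPDH has many processed pseudogenes, and its reads may be split with them. PRMT1, the main Type I arginine methyltransferase, rose from 0.127, 0.134, and 0.118 to 0.419, 0.439, and 0.386 (ΔΨ = +0.289, adjusted p = 5.38e-12). Both genes had libraries of 1 day close together and days far apart.

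The pairs with the largest ΔΨ had fewer reads. SENP2, a SUMO protease, rose from 0.280, 0.219, and 0.280 to 0.738, 0.672, and 0.696 (ΔΨ = +0.442, adjusted p = 8.09e-07), and BSDC1, a gene of little known function, from 0.368, 0.391, and 0.449 to 0.798, 0.825, and 0.761 (ΔΨ = +0.392, adjusted p = 5.96e-08). RING1, a Polycomb protein, fell from 0.812, 0.875, and 0.763 to 0.451, 0.434, and 0.491 (ΔΨ = −0.358, adjusted p = 4.92e-08), and ARSD, a sulfatase gene, from 0.742, 0.773, and 0.739 to 0.406, 0.400, and 0.537 (ΔΨ = −0.304, adjusted p = 0.000193). No 7-day library overlapped with the 4-day libraries in any of these 4 genes.

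Other pairs came from the gene lists. SCD, which desaturates fatty acids, had a ΔΨ of +0.082, SLC3A2, a chain of amino acid transporters, +0.0619, SRSF5, an SR protein, +0.158, TP53I3, a target of p53, +0.165, and MOB1A, a Hippo pathway protein, +0.146. All 12 MXE calls chosen by the rule for named events held without any 1 library, and 10 of 12 were called by limma, the exceptions being SCD (adjusted p = 0.057) and SLC3A2 (adjusted p = 0.0782).

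**Figure D4:**
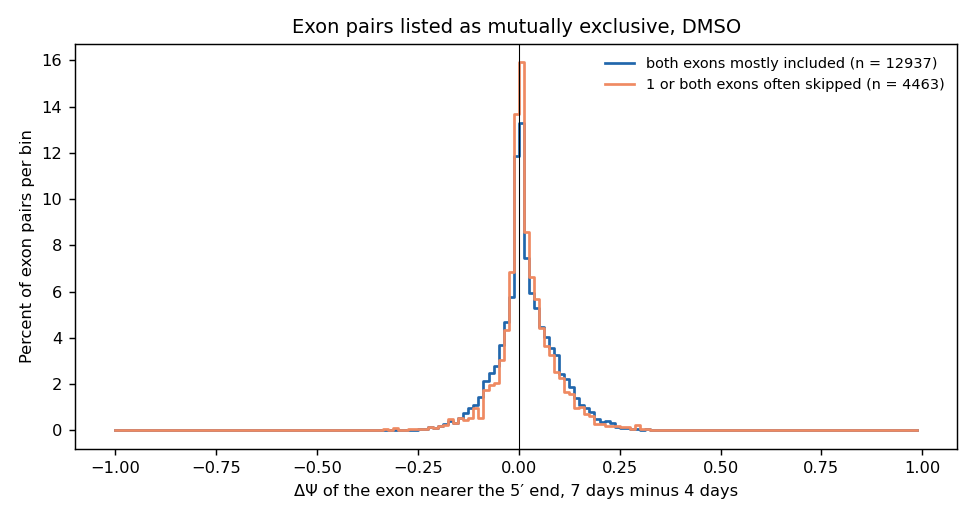
Distribution of ΔΨ of the exon nearer the 5′ end (horizontal axis, 7 days minus 4 days) as percent of exon pairs per bin (vertical axis) for pairs with both exons mostly included and pairs with 1 or both exons often skipped, DMSO libraries. Both curves lean to the right of 0, with medians of +0.00835 and +0.00728.

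RI give a reference from the same libraries. Of 3848 tested RI 342 were called (8.89%), 126 higher (3.27%) and 216 lower (5.61%), and the median ΔΨ over all was −0.00127 (exact permutation p = 0.2). NKTR, a cyclophilin with a long arginine and serine rich tail, had an intron at 0.574, 0.543, and 0.751 at 4 days and 0.229, 0.171, and 0.295 at 7 days (ΔΨ = −0.391, adjusted p = 0.00272). WDR90, a protein of centrioles, had an intron at 0.380, 0.387, and 0.308 against 0.521, 0.808, and 0.625 (ΔΨ = +0.293, adjusted p = 0.0186), and this call was lost without 7-day library b or c (adjusted p up to 0.165). Of 29 tested introns of snoRNA host genes 9 were called lower. Most of these lie in GAS5, and the others in SNHG5, SNHG11, and TAF1D. RI had no call by limma (0, with 612 unadjusted p under 0.05).

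The cells treated with GSK591, an inhibitor of PRMT5, or with MS023, an inhibitor of Type I PRMTs, at 1 µM each were sequenced at the same days, with 3 libraries a group, so their own difference between 7 and 4 days can be set beside that of DMSO. These libraries are other libraries than those of DMSO. They share the days, and whether they also share a preparation or sequencing run with the DMSO libraries of the day is not given in the sources used here. In MS023 83.3% of the SE called in DMSO and tested in both went in the same direction (1551 of 1862), and 379 were called in that direction and 2 in the opposite one. Over all 50627 SE tested in both, 51.7% had the same direction. In GSK591 the share was 60.2% (1115 of 1852), with 297 called in the same direction and 116 in the opposite one, and 47.6% over all 48869.

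Of 1501 SE that fell in DMSO 875 fell in GSK591 too (58.3%), 232 of them called, and 106 were called in the opposite direction, whereas in MS023 1260 of 1501 fell (83.9%) and 1 was called in the opposite direction. The difference itself was tested by an interaction of day and treatment. With GSK591 it passed in 847 of all 54702 tested SE (1.55%), and with MS023 in 31 of 55589 (0.0558%). 

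Within each inhibitor the share of events called between 7 and 4 days was as follows. For SE it was 3.66% in GSK591 (2.30% higher, 1.36% lower) and 1.29% in MS023 (0.392% higher, 0.901% lower), so that 1222 of 1943 called SE rose in GSK591 while 494 of 709 fell in MS023. For MXE it was 21.7% in GSK591 (12.7% higher, 8.95% lower) and 21.9% in MS023 (13.6% higher, 8.26% lower), both close to that of DMSO. For A3SS it was 5.38% (1.56% higher, 3.83% lower) and 1.49% (0.507% higher, 0.978% lower), and for A5SS 6.85% (2% higher, 4.84% lower) and 2.28% (0.917% higher, 1.36% lower). RI stood out in GSK591, with 21.7% called (1.73% higher, 19.9% lower), against 9.43% in MS023 (2.39% higher, 7.04% lower).

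CLSTN1 shows such a difference. Its exon fell in DMSO by 0.263 and rose in GSK591 (ΔΨ = +0.153, adjusted p = 0.000861), and the interaction had an adjusted p of 8.9e-08, while MS023 gave a ΔΨ of −0.0685 (adjusted p = 0.239). MYO18A went down in DMSO and up in GSK591 (ΔΨ = +0.196, interaction adjusted p = 2.62e-07). MPRIP, a protein that ties myosin phosphatase to actin, fell in DMSO from 0.736, 0.683, and 0.711 to 0.596, 0.587, and 0.673 (ΔΨ = −0.0915, adjusted p = 1.14e-05) but rose in GSK591 (ΔΨ = +0.201) and MS023 (ΔΨ = +0.0737), with interaction adjusted p of 1.85e-13 and 0.00111. The call of MPRIP in DMSO was lost without 7-day library a or b (adjusted p up to 0.303). These 3 exons were picked after their values were seen.

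Other exons moved alike under all 3 treatments. The CTNND1 exon had a ΔΨ of −0.296 in GSK591 and −0.175 in MS023, the PTBP1 exon −0.112 and −0.15, the ECT2 exon −0.127 and −0.108, and the PRKAR1A exon −0.153 and −0.133, all of them called. The SEPT2 exon rose by 0.171 and 0.166, also called in both. Of the 1951 SE called in DMSO, 154 in 116 genes were called in the same direction in GSK591 and MS023 too, 126 lower and 28 higher. Over all tested SE, 3.66% were called in GSK591 and 1.29% in MS023, in either direction. SE tested under all 3 treatments were not counted, so whether 154 is many was not tested.

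**Figure D5:**
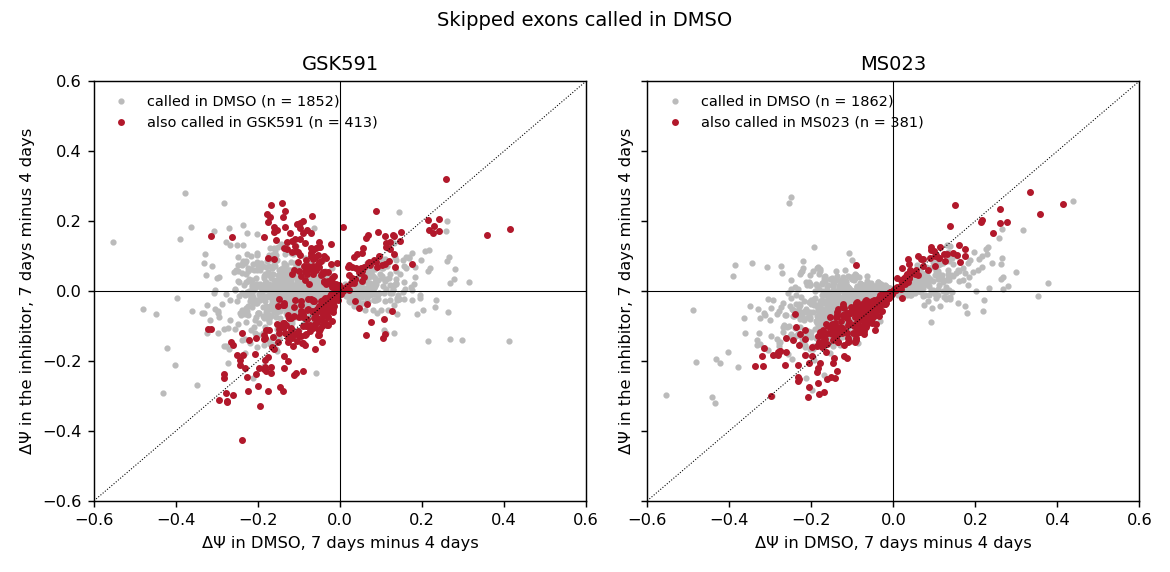
ΔΨ of skipped exons called in DMSO (horizontal axis, 7 days minus 4 days) against ΔΨ of the same exons over the same days in GSK591 (left) and MS023 (right), where each point is an exon, red points were also called in the inhibitor, and the dotted line marks equal ΔΨ. In MS023 83.3% of the points share the sign of DMSO, against 60.2% in GSK591, where a group of called exons lies in the upper left.

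MXE were closer between treatments. Of the called MXE tested in both, 91.9% kept their direction in GSK591 (1555 called in it) and 96.4% in MS023 (1788 called), against 68.1% and 72.3% of all tested MXE. Of the 4172 MXE called in DMSO, only 2669 were also tested in GSK591 and 2637 in MS023. Those called in the same direction under all 3 treatments numbered 1011. MXE tested under all 3 treatments were not counted, so whether 1011 is many was not tested. Over all tested MXE, 21.7% were called in GSK591 and 21.9% in MS023, in either direction. For A3SS the shares were 81.4% and 88.3%, against 53.4% and 54.3% of all tested, and for A5SS 66.4% and 89.1%, against 51.4% and 54.8%. The interaction with GSK591 passed in 1.8% of all tested MXE, 1.09% of A3SS, 2.9% of A5SS, and 6.23% of RI, and that with MS023 in 0.142%, 0.0367%, 0.056%, and 0.295%. The PKMYT1 site rose by 0.283 in GSK591 and 0.202 in MS023, called in both. RI that fell in DMSO fell in 95.8% of cases in GSK591 and 95.4% in MS023, while those that rose did so in 54% and 86.5%. Over all tested RI the direction was the same in 57.7% and 63.1%, and most RI called between the days fell in either inhibitor, 751 of 816 in GSK591 and 268 of 359 in MS023.

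For scale, GSK591 against DMSO called 12.2% of SE at 4 days and 9.11% at 7 days, and MS023 4.39% and 5.18%, against 3.06% between both DMSO groups. For MXE the shares were 8.35% and 5.64% for GSK591 and 1.54% and 2.63% for MS023, against 22.7% between both DMSO groups. These comparisons share the DMSO libraries with the comparison described here. A larger share of MXE was thus called between 4 and 7 days of DMSO than between either inhibitor and DMSO on the same day.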

How the data were processed

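The authors trimmed the reads with Trim Galore 0.6.5, aligned them to hg19 with STAR 2.4.2a, and counted events with rMATS. They deposited tables in which each cell holds the counts of 3 libraries joined by commas. DMSO counts and effective lengths were taken from the 4-day and 7-day tables, and did not differ between tables of the same control (0 events). Columns with the authors' Ψ, differences, and p-values were not used (24 columns of per-sample values).

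Ψ was computed from the counts and effective lengths. A quasi-binomial logistic model compared both days, with dispersions shrunk by limma 3.58.1 (R 4.3.3) and never below 1, an F test, and Benjamini-Hochberg adjustment within the event type. An adjusted p under 0.05 was called. An interaction term compared days between treatments. Medians were tested by exact permutation of libraries. Named events have at least 50 reads in every library and no overlap, and the largest |ΔΨ| per type and direction, plus per gene list the called event with the smallest p, of which 1 is not reported here. Members and lists were chosen with earlier results of these data known. Exon classes came from GENCODE on GRCh37, with motifs counted within 200 nt.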

Additional observations from a re-analysis of the deposited data

Results flagged for a closer look

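The events below are named events whose difference between 7 and 4 days differed between DMSO and an inhibitor by the interaction test of the quasi-binomial model. The adjusted p of the interaction is given for each, and DMSO, GSK591, and MS023 had 3 libraries a day.

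In APP the exon fell by 0.337 in DMSO, with a ΔΨ of −0.0643 in GSK591 (adjusted p = 6.91e-05). In EIF4A2 the ΔΨ was −0.321 and −0.109 (adjusted p = 0.00137), both of them called, so the fall was smaller in GSK591. Mean Ψ of the APP exon was 0.732 in DMSO and 0.5 in GSK591 at 4 days, and 0.395 and 0.435 at 7 days. For the EIF4A2 exon it was 0.574 and 0.348 at 4 days, and 0.253 and 0.239 at 7 days. In both exons GSK591 thus lay further from DMSO at 4 days than at 7 days. The MYL6 exon had a ΔΨ of −0.0781 in DMSO and −0.00271 in GSK591 (adjusted p = 0.0154). Its mean Ψ at 4 days was 0.168 in DMSO but only 0.025 in GSK591, so a fall of 0.0781 was not possible there. The MAGOH exon gave −0.0676 and 0.028 (adjusted p = 0.0193). BCL2L12 gave −0.193 in DMSO, 0.0788 in GSK591 (adjusted p = 2.29e-07), and −0.024 in MS023 (adjusted p = 8e-04). The SNHG5 exon fell by 0.0404 in DMSO and rose by 0.0269 in GSK591 (adjusted p = 1.52e-08), called in both. PPP2R3A, with few reads, gave −0.379 and 0.281 (adjusted p = 0.00217), and its ΔΨ in GSK591 was not called.

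Of the splice sites of C1orf63 the A3SS form gave −0.308 in DMSO and 0.0827 in GSK591 (adjusted p = 0.000226), and the A5SS form −0.348 and 0.0269 (adjusted p = 0.000619). They share reads. The A5SS of CLEC16A gave 0.205 and −0.133 (adjusted p = 0.0129). The pairs of GAPDH and RING1 kept their direction and differed in size, with 0.146 and 0.104 for GAPDH (adjusted p = 0.0153) and −0.358 and −0.208 for RING1 (adjusted p = 0.044).

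SE picked as examples after their values were seen gave such differences too. CLSTN1 had a ΔΨ of −0.263 in DMSO and 0.153 in GSK591 (adjusted p = 8.9e-08), ITGA6 −0.228 and 0.0853 (adjusted p = 0.000852), and MYO18A −0.175 and 0.196 (adjusted p = 2.62e-07). MPRIP gave −0.0915 in DMSO, 0.201 in GSK591 (adjusted p = 1.85e-13), and 0.0737 in MS023 (adjusted p = 0.00111), so with BCL2L12 it differed from both inhibitors. MORF4L2 gave −0.113 and 0.0593 (adjusted p = 9.08e-07), and SRRM2 0.127 and −0.0566 (adjusted p = 5.54e-09), each called in opposite directions. PTK2 gave 0.175 and 0.00398 (adjusted p = 0.00086). The falls of COPB2 (−0.0697 and −0.0218, adjusted p = 0.00739), DDX50 (−0.147 and −0.0409, adjusted p = 0.0488), and the 107 nt exon of EIF4A2 (−0.314 and −0.109, adjusted p = 0.00201) were smaller in GSK591. PSMA4 fell by 0.228 in DMSO and 0.245 in GSK591, with an interaction on the log odds scale (adjusted p = 0.0249).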

How the results depend on the processing

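No paired analysis was possible because the columns carry no replicate numbers. The planned test of counts with a negative binomial model was not run, since the deposited cells join the counts of several libraries. By limma on the log2 odds 0 SE, 1767 MXE, 0 A3SS, 0 A5SS, and 0 RI were called. With |ΔΨ| of at least 0.05 required, 1208 SE, 71 A3SS, 73 A5SS, and 153 RI remained in the count. MXE numbered 2207 with the spread taken from 18 libraries, 1824 among events listed in all 8 tables, and 745 without the pairs whose exons were both mostly included (chosen after seeing the data). The next alternatives were also chosen after seeing the data. With events kept in which 1 form was never seen, 0 SE (4255 with an unadjusted p under 0.05), 0 A3SS (421), 0 A5SS (356), and 50 RI were called. With the prior dispersion as a trend 847 SE were called. The prior degrees of freedom of SE were 184 with all libraries and 0.915 to 1.25 with 1 left out.

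Leaving out 1 library gave 180 to 1439 SE, 2972 to 3878 MXE, 43 to 136 A3SS, 25 to 103 A5SS, and 150 to 322 RI. The lowest counts of SE, A3SS, A5SS, and RI came without 7-day library a. Among events with at least 10 reads of the rarer form, leaving out 1 library gave 728 to 1392 SE, also an alternative chosen after seeing the data. SE called in DMSO and in the same direction in GSK591 numbered 297, and 0 by limma, 176 with |ΔΨ| of at least 0.05, and 140 with the trend. For MS023 these were 379, 0, 247, and 179. The median ΔΨ over tested SE was −0.000621 without length correction, −0.000979 with at least 20 reads, −0.00122 with at least 1 read, and −0.00121 to −0.000293 with 1 library left out. The A3SS median was −0.000495 to 0 with 1 library left out, and 0 without 7-day library a. The A5SS median was 0 without any 1 of the 4-day libraries. Of 66 named events 56 were not called by limma, 22, 19, and 16 lost their call without 7-day library a, b, or c, and 3 with the trend, and no named event reversed under the alternatives run.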
